A study of Mus musculus with 12 samples.

Results

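Whole-lung RNA of 4 wild-type (WT) mice exposed to cigarette smoke was compared with that of 4 WT mice kept in room air, each mouse on an array of its own. The comparison covered the autosomes. A probe was described if it lay on chromosomes 1 to 19 and was well above background, by the scanner's own flag, on at least 4 of the 8 WT arrays. This left 28584 of 39309 autosomal probes, which stood for 18705 of the 27595 genes named on the array. The other 10725 autosomal probes were not tested. All mice were labelled male, C57Bl/6 and 12 weeks of age, and smoke was given on 5 days a week for 4 months in a steel chamber fed by a smoking machine. Exposure outlasted the labelled age of 12 weeks, so 12 weeks is not the age after smoke exposure. No length of stay is given for the room air mice, so whether both groups were sampled at the same age is not known. No transgene or Cre driver is named for the WT mice. The series also holds 4 smoke-exposed Rora mutant mice, which entered the fit only as a further group that shares the estimate of the spread, so that 12 arrays set the error. The labels call the arrays of a group biological replicates.

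Cigarette smoke carries polycyclic aromatic hydrocarbons, reactive aldehydes and oxidants. In airway and lung cells the hydrocarbons bind the aryl hydrocarbon receptor (AhR), a ligand-activated transcription factor that pairs with Arnt on DNA elements built around GCGTG and switches on cytochrome P450 genes of family 1 and its own repressor, Ahrr. Electrophiles and oxidants act on Keap1, which frees Nrf2 to bind antioxidant response elements in genes for glutathione synthesis and detoxifying enzymes. The airway lining also holds goblet and club cells, which secrete mucins and defence proteins, and alveoli hold macrophages that take up inhaled particles.

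Levels are log2 processed signal minus the log2 of the array's 75th percentile, so that 0 is the level of the 75th percentile and each unit is a doubling; levels of different probes are not comparable. Calls rest on limma with Benjamini-Hochberg adjustment across the 19512 genes tested and need an adjusted p under 0.05. Of 18705 autosomal genes, 930 were called (4.97%), 445 of them higher (2.38%) and 485 lower in smoke (2.59%). The changes were mostly small, with a median size of 0.45 log2 units among called genes, and 304 genes were called with a change of at least 1.5-fold (1.63%). At least 2-fold rises numbered 56 and falls 38, and at least 4-fold there were 7 of each. The 4 arrays of one group did not overlap the 4 of the other for 12.9% of genes, with smoke above room air for 6.03% and below for 6.91%. The 15 largest rises and 15 largest falls named below were taken only from genes without such overlap. That their groups lie apart is set by this rule and is no support. The median change of all autosomal genes was -0.01. Counts of calls and medians of the lists below stand beside these values, 4.97% of genes called and a median of -0.01. The gene lists below were chosen with earlier results of these data known. Their shares of calls and medians beside those of all genes are therefore descriptive and no independent support.

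These totals fell whichever WT mouse was left out, to 266 to 359 genes higher and 248 to 411 lower. Fewer calls are made in general with 3 arrays left in a group. Such a drop, here or in the lists below, therefore does not single out a mouse. Without room air replicate 4, 266 genes were higher and 271 lower. Without smoke replicate 3 the totals were 289 and 300. The lower genes also dropped in number, to 248 without smoke replicate 2, 289 without room air replicate 2, 295 without smoke replicate 4 and 317 without room air replicate 1. With arrays scaled to their median instead of their 75th percentile, 570 genes were higher and 329 lower, so that 63.4% of calls were rises against 47.8% here. The arrays lay on 3 slides that each held both groups, and a fit that blocks on slide called 347 rises and 330 falls. A fit of the 8 WT arrays alone, without the mutant arrays, called 347 rises and 395 falls. In that fit 24 of the 155 genes named in the text by rule or after their values were seen lost their call.

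The exposures also differed in sex-linked RNA although every label says male. Xist, the long RNA of X inactivation, stood at 3.97 to 4.13 on the room air arrays and at -8.17 to -3.18 on the smoke arrays, and Y-linked Ddx3y passed the background flag on 0 of 4 room air and 4 of 4 smoke arrays (exact permutation p = 0.0286 each, two-sided, the smallest that 4 against 4 allow). Sex-linked signal and exposure therefore cannot be told apart for any gene below. Position on the slide nearly coincided with exposure too: replicates 1 to 3 lay at position 1 in room air and at position 2 in smoke, and replicate 4 of both groups at position 4. Defining markers of lung cell types were above background on all 8 arrays: the club cell protein Scgb1a1 stood at 8.69 ± 0.09 (SD, n = 4) in room air and 8.72 ± 0.21 in smoke, and the surfactant gene Sftpc at 9.30 ± 0.17 and 9.34 ± 0.40.

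The largest rises were those of the AhR targets Cyp1b1, Ahrr and Cyp1a1, the cystine transporter Slc7a11 and Nqo1. The 250 bases before the transcription start of these genes, and of the glutathione synthesis gene Gclm, which rose less, are printed (RefSeq, GRCm38.p6, coding strand, 5′ to 3′). Elements farther from the start lie outside this window and were not looked for. Capitals mark matches, on either strand, to the AhR core (letters GCGTG), to the core of the antioxidant response element (letters TGACNNNGC) and to an amino acid response element (letters TGATGCAA). The matches do not overlap one another.
Cyp1b1 (chr17:79715062-79715311, minus strand): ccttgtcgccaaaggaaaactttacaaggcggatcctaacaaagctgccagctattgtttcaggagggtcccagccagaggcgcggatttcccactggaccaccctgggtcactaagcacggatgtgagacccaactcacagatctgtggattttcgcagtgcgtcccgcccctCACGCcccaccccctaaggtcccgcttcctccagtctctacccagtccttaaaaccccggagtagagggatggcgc
Ahrr (chr13:74292332-74292581, minus strand): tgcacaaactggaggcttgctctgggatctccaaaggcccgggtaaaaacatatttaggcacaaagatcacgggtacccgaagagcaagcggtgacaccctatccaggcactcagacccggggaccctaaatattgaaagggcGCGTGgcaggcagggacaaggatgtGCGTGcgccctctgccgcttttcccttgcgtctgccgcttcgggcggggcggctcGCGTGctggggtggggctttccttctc
Cyp1a1 (chr9:57697363-57697612, plus strand): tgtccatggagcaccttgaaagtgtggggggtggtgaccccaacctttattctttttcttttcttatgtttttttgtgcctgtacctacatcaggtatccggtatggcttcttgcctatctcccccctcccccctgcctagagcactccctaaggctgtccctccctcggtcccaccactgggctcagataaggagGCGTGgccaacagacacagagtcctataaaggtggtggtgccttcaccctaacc
Slc7a11 (chr3:50443614-50443863, minus strand): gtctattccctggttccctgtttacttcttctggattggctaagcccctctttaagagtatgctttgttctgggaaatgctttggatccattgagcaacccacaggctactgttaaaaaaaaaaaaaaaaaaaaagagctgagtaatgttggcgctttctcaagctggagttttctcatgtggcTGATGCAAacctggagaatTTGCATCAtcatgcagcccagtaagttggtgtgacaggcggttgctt
Nqo1 (chr8:107403206-107403455, minus strand): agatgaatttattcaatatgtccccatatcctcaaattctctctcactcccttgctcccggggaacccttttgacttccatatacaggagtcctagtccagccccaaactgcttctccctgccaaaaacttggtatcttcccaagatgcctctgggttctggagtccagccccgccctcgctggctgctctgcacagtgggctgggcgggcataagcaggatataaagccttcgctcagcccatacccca
Gclm (chr3:122245307-122245556, plus strand): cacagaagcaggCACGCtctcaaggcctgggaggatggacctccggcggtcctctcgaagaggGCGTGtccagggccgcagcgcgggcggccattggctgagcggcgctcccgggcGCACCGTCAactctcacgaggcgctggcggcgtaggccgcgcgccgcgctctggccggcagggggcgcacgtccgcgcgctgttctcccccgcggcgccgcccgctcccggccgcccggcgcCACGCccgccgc
Cyp1a1 and Cyp1b1 each held 1 GCGTG in this window, Ahrr and Gclm 3, and Slc7a11 and Nqo1 none. Gclm held 1 TGACNNNGC, and Slc7a11 held TGATGCAA in each orientation, at 66 to 59 and 47 to 40 bases before the start. The Nqo1 window held none of these letters. GCGTG is common in such windows: 46.3% of the 11793 autosomal genes tested that have a start in the table hold it, 45.6% of the 285 that were higher, 21.4% of the 42 that rose at least 2-fold and 35.0% of the 323 that were lower. For TGACNNNGC the shares were 13.6%, 15.1%, 16.7% and 10.5%, and for TGATGCAA 0.738%, 0.702%, 2.38% and 0.619%. A match is a run of letters and no test of binding, and a window without a match tells nothing of elements farther from the start.

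Targets of AhR rose in smoke. Of 7 measured members of this list 5 were called higher and 0 lower, against 4.97% of all autosomal genes called, and the list median was 2.34 log2 units against -0.01 for all genes. Cyp1b1, a P450 that oxidises aromatic hydrocarbons and oestrogens, stood at -2.41, -2.53, -2.00 and -2.27 in room air replicates 1 to 4 and at 2.50, 2.19, 2.33 and 2.13 in smoke replicates 1 to 4. This is a rise of 4.59 ± 0.11 (SE), or 24.1-fold (adjusted p = 3.46e-10; probe at chr17:79615533-79615592 on mm8), and its other probe, higher in smoke too, was not well above background on any room air array. All smoke arrays lay far above all room air arrays, and the spread within a group was small beside the gap. Cyp1a1, the P450 that clears many AhR ligands, read 1.18, 1.34, 1.39 and 0.49 in room air and 4.79, 4.46, 4.89 and 4.09 in smoke, a rise of 3.46 ± 0.24 (adjusted p = 1.02e-05; chr9:57501865-57501924). Replicate 4 was the lowest of both groups, and the groups did not overlap.

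Ahrr, the repressor that competes with AhR for Arnt, stood at -4.68, -5.02, -4.51 and -4.77 in room air and at -0.04, -0.43, -0.15 and -1.09 in smoke (4.32 ± 0.23, adjusted p = 1.07e-06; chr13:74677120-74677166). Nqo1, a quinone reductase under both AhR and Nrf2 control, read -0.74, -0.74, -0.75 and -0.98 in room air and 1.72, 1.43, 1.64 and 1.34 in smoke, a 5.06-fold rise (2.34 ± 0.15, adjusted p = 4.59e-06; chr8:110277669-110277728). In both genes the lowest smoke array, replicate 4, was well above the highest room air array. Aldh3a1, an aldehyde dehydrogenase that removes lipid aldehydes, went from -5.22, -4.87, -4.84 and -4.95 to -2.61, -3.24, -3.01 and -3.46, a rise of 1.89 ± 0.15 (adjusted p = 3.16e-05). An exact permutation test of each of Cyp1a1, Cyp1b1, Ahrr and Nqo1 gave p = 0.0286 (two-sided, 4 against 4). Within the 3 slides the rise of Cyp1b1 was 4.85, 4.69 and 4.33 and that of Cyp1a1 was 3.96, 2.93 and 3.50, each slide resting on a single array of at least 1 group. With normexp background correction in place of the scanner's processed signal, the rise was 2.18 for Ahrr and 0.56 for Aldh3a1.

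The receptor's own machinery had no called gene. Of 6 genes for AhR, its partner Arnt and their chaperones, 0 were called by limma and 1 had an unadjusted p under 0.05 (median -0.03), with Ahr changing by 0.20 ± 0.09 (adjusted p = 0.248). Tiparp, a feedback target that modifies AhR, stood at 1.43 to 1.60 in room air and 1.65 to 1.71 in smoke, above on every array but by only 0.15 ± 0.06 (adjusted p = 0.222). Among 23 other P450s and partners 1 was called higher and 2 lower (13% called against 4.97% of all autosomal genes, median 0.02). The microsomal epoxide hydrolase Ephx1, which acts after P450s, rose by 0.27 ± 0.06 (adjusted p = 0.0169), and Cyp4f15, a fatty acid hydroxylase, fell by 0.35 on the log2 scale (adjusted p = 0.0124). The other fall was Cyp2c23 (-0.41, lost in 8 of 19 alternatives). The lung P450s Cyp2a5 (0.47 ± 0.21, adjusted p = 0.251) and Cyp2f2 (0.12) did not pass. Cyp2a4 and Cyp2a5 are near-identical copies whose probes may share signal.

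Genes of cystine uptake and glutathione synthesis rose as a group, with a median of 0.35. Of 11, 7 were called higher and 1 lower (72.7% called against 4.97% of all autosomal genes). Slc7a11, the cystine transporter that supplies cysteine for glutathione, stood at -5.89, -6.42, -6.05 and -5.95 in room air and at -3.25, -3.23, -2.90 and -3.58 in smoke. It rose 7.16-fold (2.84 ± 0.20, adjusted p = 1.02e-05; chr3:50461973-50462032), while its other probe was above background in smoke alone. Its partner chain Slc3a2 rose by 0.29 ± 0.06. Ggt1, the surface enzyme that breaks extracellular glutathione down for re-use, read -3.80, -3.82, -3.84 and -3.95 in room air and -2.59, -2.51, -2.35 and -2.70 in smoke (1.32 ± 0.07, adjusted p = 1.12e-06). These room air arrays spanned a narrow range and lay well below every smoke array. Gclm, the modifier subunit of the rate-limiting synthesis enzyme, rose by 0.76 ± 0.09 (adjusted p = 8.15e-04), its catalytic subunit Gclc by 0.50 ± 0.12 (adjusted p = 0.0396), glutathione synthetase Gss by 0.38 ± 0.06 and the reductase Gsr by 0.35 ± 0.07. The related Ggt5 moved the other way, from -0.25 ± 0.16 to -0.65 ± 0.06 (adjusted p = 0.0295). Without smoke replicate 3 the calls of this list were 4 higher and 0 lower, and without room air replicate 4 they were 5 and 0; the call of Ggt5 was also absent without room air replicate 1 or smoke replicate 1 or 2. With normexp the rise of Slc7a11 was 0.70 and that of Ggt1 0.56.

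Glutathione S-transferases, which join glutathione to electrophiles, gave 9 rises and 0 falls among 22 (40.9% called against 4.97% of all autosomal genes, median 0.15). The largest were in the alpha class: Gsta2 by 0.81 ± 0.12 (adjusted p = 3.11e-03), Gsta1 by 0.73 ± 0.09 and Gsta3 by 0.52 ± 0.08, of which Gsta1 and Gsta2 are near-identical copies. Gstp1, an abundant member in lung, stood at 5.65, 5.62, 5.65 and 5.62 in room air and at 6.43, 6.14, 6.36 and 6.26 in smoke (0.66 ± 0.07, adjusted p = 2.06e-04). The mu-class Gstm1 rose by 0.29 and Gstm3 by 0.39, while the theta-class Gstt1 changed by -0.18 and Gstk1 by -0.13 without passing. Of 23 genes of the thioredoxin and peroxidase system 5 rose and 0 fell (21.7% called, median 0.12). Srxn1, the sulfiredoxin that repairs overoxidised peroxiredoxins, read 1.74, 1.69, 1.76 and 1.68 in room air and 2.71, 2.65, 2.99 and 2.68 in smoke (1.04 ± 0.07, adjusted p = 1.02e-05), and its other probes rose by 1.06 and 1.12. Thioredoxin reductase Txnrd1 rose by 0.87 ± 0.07, the epithelial glutathione peroxidase Gpx2 by 0.73 ± 0.09 and the oxidative stress gene Osgin1 by 0.65 ± 0.07. The classical superoxide and peroxide scavengers did not pass, with Sod1 at 0.12, Sod2 at 0.04, Cat at 0.12 and Gpx1 at 0.01, and Nfe2l2, which encodes Nrf2, changed by 0.18. Of 10 genes of NADPH supply 1 rose (10% called against 4.97% of all autosomal genes, median 0.12). It was Pgd of the pentose phosphate path (0.48), not called without room air replicate 3 or 4 or smoke replicate 1, 2 or 3.

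**Figure D1:**
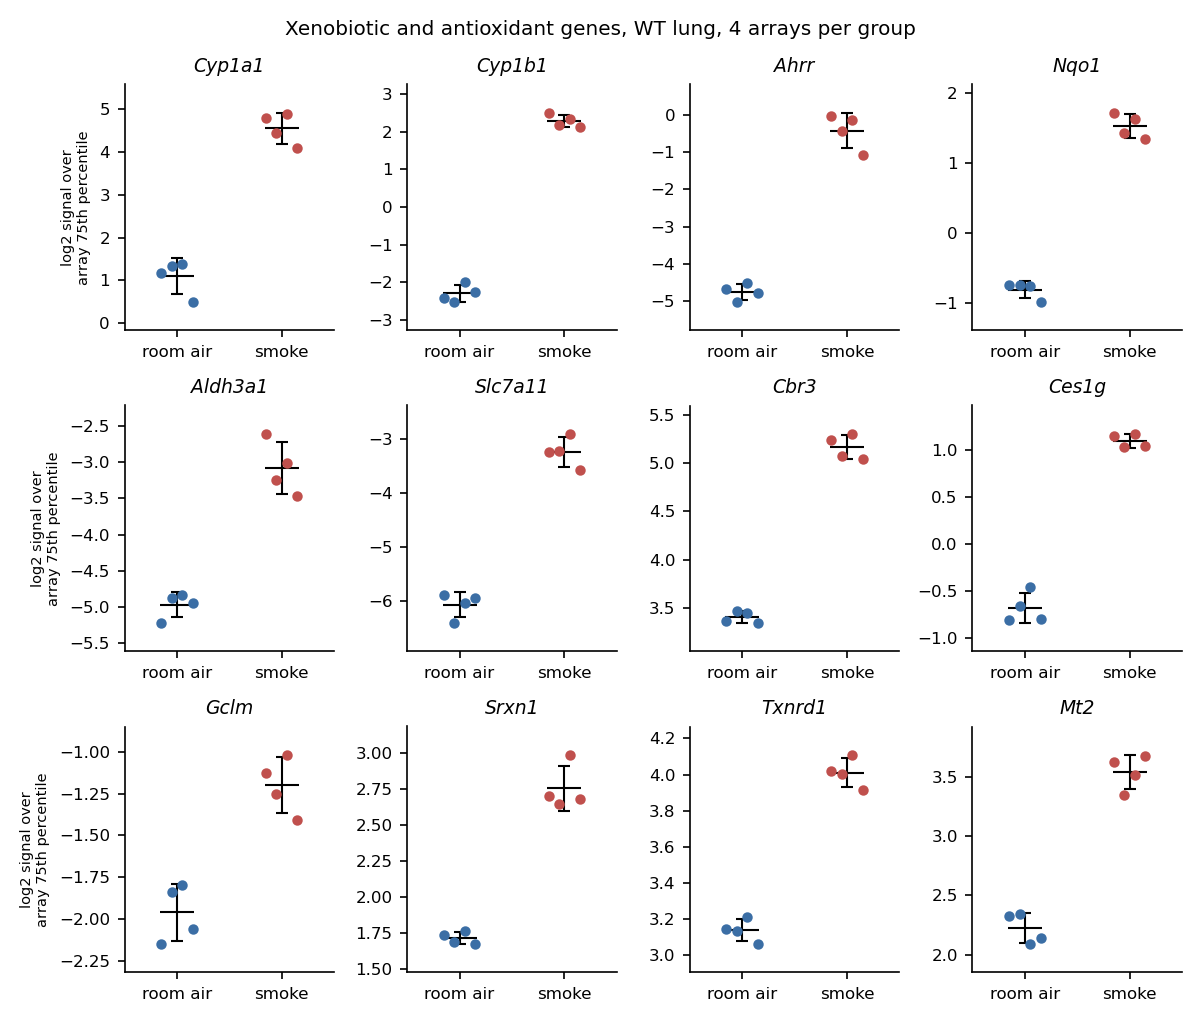
Levels of 12 xenobiotic and antioxidant genes in log2 signal over the array's 75th percentile (vertical axis, 1 scale per panel) on the 4 room air (blue) and 4 smoke (red) WT arrays; each point is a mouse, left to right replicates 1 to 4, with the mean (long bar) and SD (whiskers). In every panel all 4 smoke points lie above all 4 room air points, from Cyp1b1 (-2.30 ± 0.23 to 2.29 ± 0.17) to Gclm (-1.96 ± 0.17 to -1.20 ± 0.17).

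Enzymes acting on aldehydes, carbonyls and esters gave 9 rises and 0 falls among 28 (32.1% called against 4.97% of all autosomal genes, median 0.12). Cbr3, a carbonyl reductase, stood at 3.36, 3.47, 3.44 and 3.34 in room air and at 5.24, 5.07, 5.30 and 5.04 in smoke, a 3.38-fold rise with little spread (1.76 ± 0.08, adjusted p = 2.88e-07; chr16:93579415-93579474), against 0.51 ± 0.09 for its relative Cbr1. The aldo-keto reductase Akr1b8 rose by 0.96 ± 0.07 and the retinol-oxidising alcohol dehydrogenase Adh7 by 1.01 ± 0.14. Aldh1a3 and Aldh1a1, which make retinoic acid, rose by 0.44 ± 0.08 and 0.37 ± 0.08. The abundant Cbr2 (-0.01) and Aldh2 (0.10) were not called.

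Carboxylesterases of the Ces1 cluster on chromosome 8 split by member, as far as their probes tell these closely related genes apart. Ces1g, a lipid and drug hydrolase, read -0.81, -0.66, -0.46 and -0.80 in room air and 1.15, 1.03, 1.17 and 1.04 in smoke (1.78 ± 0.09, adjusted p = 8.08e-07; chr8:96191971-96192030; other probe 1.75). Ces1h, next to it at chr8:96241599-96242589, went from -5.13, -4.70, -4.96 and -4.88 to -3.10, -3.06, -2.90 and -3.45 (1.79 ± 0.13, adjusted p = 1.02e-05). Ces1f rose by 1.37 ± 0.11 (adjusted p = 2.25e-05). On the same run of the chromosome Ces1e rose by 0.26 ± 0.06 (adjusted p = 0.0276, lost in 10 of 19 alternatives), and Ces1d, from 5.42 ± 0.03 to 5.60 ± 0.15, did not pass (0.19 ± 0.07, adjusted p = 0.177); both are named after their values were seen. With normexp the rise of Ces1h was 0.56. The differences between these members were not tested.

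Haem, iron and metal-binding genes rose in part. Of 17 haem and iron genes 5 rose and 0 fell (29.4% called against 4.97% of all autosomal genes, median 0.15). Haem oxygenase Hmox1, which breaks haem down, stood at 1.31, 1.33, 1.14 and 1.27 in room air and at 2.14, 2.19, 2.25 and 2.03 in smoke (0.89 ± 0.10, adjusted p = 7.44e-04). The ferritin light chain Ftl1 rose by 0.45 ± 0.05, the iron exporter Slc40a1 by 0.45 ± 0.09, the porphyrin transporter Abcb6 by 0.36 ± 0.07 and biliverdin reductase Blvrb by 0.32 ± 0.07; without room air replicate 2 or 4 the list had 3 calls. Metallothioneins bind zinc and cadmium. Mt2 read 2.33, 2.34, 2.09 and 2.14 in room air and 3.62, 3.34, 3.51 and 3.67 in smoke, a 2.48-fold rise (1.31 ± 0.09, adjusted p = 1.02e-05). Mt1, beside it on chromosome 8, rose by 0.70 ± 0.09 by its brighter probe and by 2.06 by the other. No zinc transporter was called among the 13 metallothionein and zinc genes (2 higher, 0 lower, median -0.02). Of 15 conjugating enzymes and export pumps 2 rose and 1 fell (median -0.06), the glutathione-conjugate pumps Abcc3 (0.32) and Abcc1 (0.29) and the sulfotransferase Sult1c2 (-0.62), whose call was lost in 12 of 19 alternatives. Without room air replicate 1 or 2 or smoke replicate 1 or 3, 1 rise and 0 falls were left.

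The calls among stress genes made up 13% of the p53 target list, 18.2% of the heat shock list and 4.76% of the unfolded-protein list, against 4.97% of all autosomal genes. Gdf15, a secreted stress cytokine, stood at -2.35, -2.35, -2.43 and -2.45 in room air and at -0.96, -0.79, -0.85 and -1.20 in smoke, a 2.72-fold rise (1.44 ± 0.09, adjusted p = 4.86e-06). It belongs to a list of 23 p53 targets of which 3 rose and 0 fell (median 0.13), the others being Gadd45g (0.57 ± 0.07) and Plk3 (0.50 ± 0.08). Cdkn1a, the cell-cycle inhibitor most used as a p53 readout, changed by 0.23 and Mdm2 by 0.07, neither called. Of 21 unfolded-protein and ATF4 genes 0 rose and 1 fell (Sdf2l1, -0.44 ± 0.07; median -0.10), and of 11 heat shock chaperones 0 rose and 2 fell (median -0.19). Hsph1, a co-chaperone of Hsp70, went from 2.06, 2.44, 2.59 and 2.76 to 1.81, 1.74, 1.81 and 1.82 (-0.67 ± 0.12, adjusted p = 6.31e-03), so the room air mice varied more than the smoke mice. The other was Hspa8 (-0.31 ± 0.06). Without room air replicate 1 this list had 4 falls, and without room air replicate 2 or smoke replicate 3 it had 1.

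Immediate early factors respond quickly to many stimuli, handling among them. Of 21, 4 rose and 0 fell (19% called against 4.97% of all autosomal genes, median 0.40). The list median was 0.08, 0.40 and 0.79 within the slides. The rises were Ier3 (0.63 ± 0.08), Maff (0.51 ± 0.09), Junb (0.66 ± 0.16, lost in 7 of 19 alternatives) and Myc (0.29 ± 0.06). Egr1 stood at 0.26, 0.15, 0.50 and 0.78 in room air and at 0.91, 0.57, 2.75 and 1.85 in smoke (adjusted p = 0.136). Its smoke replicates 3 and 4 were high, as were those of Fos (1.14 and 0.20), and neither gene passed. The glucocorticoid-responsive list gave 5 rises and 1 fall among 18 (median 0.21); Mt1, Mt2, Gadd45g and Angptl4 among them also sit in other lists, while the chaperone Fkbp5 (0.04) and the clock gene Per1 (0.14) did not pass. The fifth rise, Sgk1 (0.37), was lost in 14 of 19 alternatives, and the fall was Lcn2.

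Genes of mucus-secreting cells fell. Of 17 goblet cell and mucin genes 12 were called lower and 0 higher (70.6% called against 4.97% of all autosomal genes). Their median was -0.64. Clca1, a secreted regulator of mucus and chloride conductance, stood at 4.42, 4.05, 4.79 and 2.04 in room air and at -0.46, -3.77, -1.84 and -4.29 in smoke. Its change of -6.42 ± 0.79 (SE) log2 units, an 85.6-fold fall, was the largest among the autosomal genes named here (adjusted p = 7.90e-04; chr3:144941980-144942039). The mice of each group differed widely, and the change was -3.69 on slide 1, -8.08 on slide 2 and -6.64 on slide 3. No smoke array reached the lowest room air array, which the rule for naming the 15 largest falls required. Agr2, the disulfide isomerase needed to fold mucins, read 0.62, 1.22, 1.19 and 0.21 in room air and -1.19, -2.24, -1.49 and -1.90 in smoke (-2.52 ± 0.25, adjusted p = 2.02e-04). The trefoil peptide Tff2 went from 1.12, 1.05, 1.34 and 0.45 to -0.71, -1.26, -0.92 and -1.16 (-2.00 ± 0.23, adjusted p = 4.38e-04). In each of these 3 genes room air replicate 4 was the lowest of its group, and the groups did not overlap, as that rule required.

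The gel-forming mucins themselves fell as well. Muc5b, the constitutive airway mucin, stood at 2.16, 2.34, 2.23 and 2.02 in room air and at 0.86, 0.34, 0.57 and 0.45 in smoke (-1.63 ± 0.10, adjusted p = 4.86e-06; chr7:141682220-141682279). Muc5ac, the inducible mucin encoded next to it, read -1.94, -2.05, -1.70 and -2.54 in room air and -3.22, -3.70, -3.37 and -3.62 in smoke (-1.42 ± 0.16, adjusted p = 4.77e-04) by its brighter probe and changed by -0.12 by its other one. Room air and smoke ranges were apart for both mucins on these probes. Spdef, the transcription factor that drives goblet cell fate, fell by 0.50 on the log2 scale (adjusted p = 0.0216), and the membrane mucins Muc1 (-0.33), Muc4 (-0.64) and Muc20 (-0.54) also fell. Gp2, a zymogen granule glycoprotein, went from -1.94 ± 0.65 to -3.79 ± 0.23 (-1.86 ± 0.26, adjusted p = 1.69e-03). With normexp the change was -0.73 for Muc5ac and -0.91 for Gp2. In whole tissue, fewer cells of a type and less RNA per cell cannot be told apart. The summed linear level of the list, in log2 units, was 4.56 to 5.73 in room air and 3.27 to 3.79 in smoke, and its median was -0.53, -0.70 and -0.67 within the slides and -0.63 with the slide as a block.

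Secreted defence proteins and ion transporters of the airway changed in part. Of 19 antimicrobial and secreted defence genes 4 fell and 0 rose (21.1% called, median -0.08). Lactoferrin, Ltf, which binds iron away from bacteria, stood at 2.27, 2.72, 2.23 and 1.39 in room air and at 0.49, -0.17, 0.36 and -0.18 in smoke (-2.03 ± 0.37, adjusted p = 9.17e-03; other probe -1.99). Bpifb1, a lipid-binding protein of goblet cells, read 2.33, 2.89, 2.53 and 2.05 in room air and 1.54, 0.37, 1.13 and 0.60 in smoke (-1.54 ± 0.24, adjusted p = 3.29e-03). The groups stayed apart in both genes, as the rule for naming the largest falls required. The calls of Bpifb5 (-0.41) and Lcn2 (-0.64) were each lost without room air replicate 1 or 2 or smoke replicate 2 or 3, which left 2 falls in the list. Reg3g (-0.89, adjusted p = 0.0724) and the antibody transporter Pigr (-0.79, adjusted p = 0.0781) did not pass. Of 18 ion and water transport genes 3 fell and 1 rose (22.2% called against 4.97% of all autosomal genes, median -0.01). The chloride channel Cftr went from -2.12, -1.83, -2.02 and -1.90 to -2.56, -2.54, -2.61 and -2.54 (-0.60 ± 0.09, adjusted p = 2.53e-03), and the anion exchanger pendrin, Slc26a4, fell by 0.92 on the log2 scale (adjusted p = 3.87e-03). The remaining fall, Slc26a9 (-0.43), and the rise, Ascl3 of ionocytes (0.47), were lost in 10 and 9 of 19 alternatives, and the list had 2 falls and 0 rises without room air replicate 2 or smoke replicate 2 or 4. With normexp the change of Cftr was -0.33. The 3 tested subunits of the sodium channel, Scnn1a, Scnn1b and Scnn1g, changed by 0.15, 0.01 and 0.06 and were not called.

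**Figure D2:**
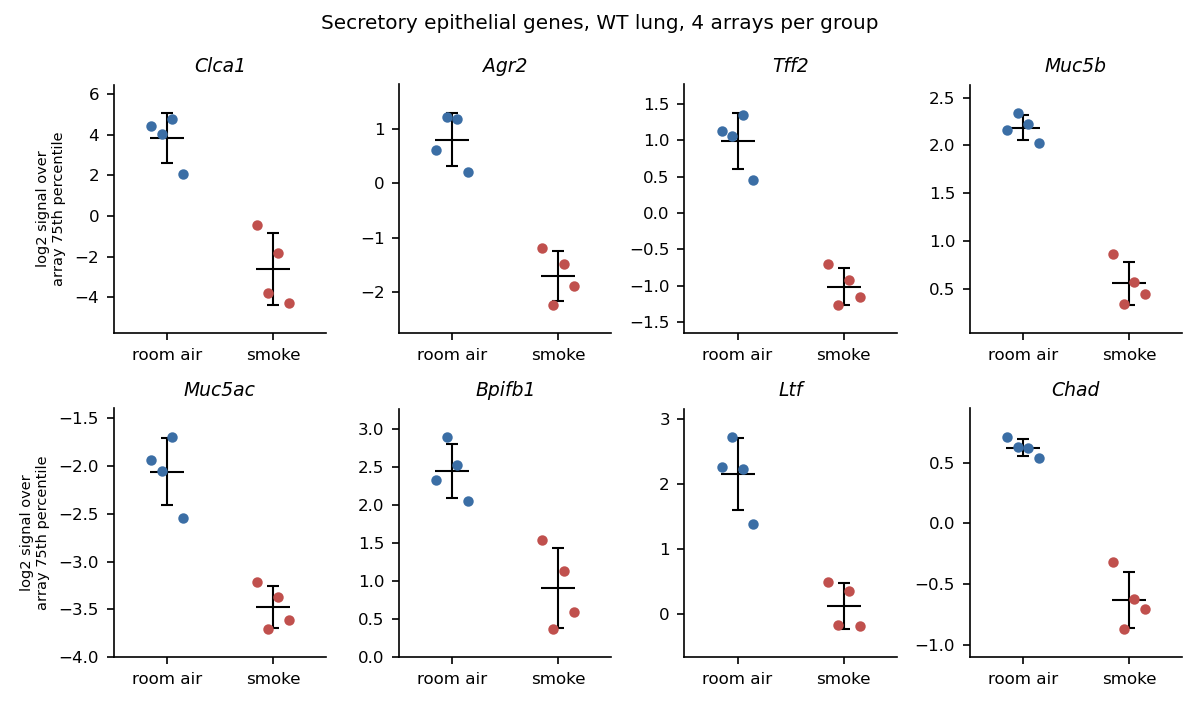
Levels of 8 genes of secretory epithelium in log2 signal over the array's 75th percentile (vertical axis, 1 scale per panel) on the 4 room air (blue) and 4 smoke (red) WT arrays, each point a mouse in the order of replicates 1 to 4, with mean and SD. All 4 smoke points lie below all 4 room air points in each panel, and Clca1 shows the widest spread (3.83 ± 1.23 in room air, -2.59 ± 1.77 in smoke).

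Of 13 club cell genes 2 fell and 0 rose (15.4% called against 4.97% of all autosomal genes; median -0.12), and their hallmark secretoglobins Scgb1a1 (0.03), Scgb3a1 (-0.24) and Scgb3a2 (-0.12) were not called. The matrix protein Chad, listed here as a club cell gene, stood at 0.71, 0.63, 0.62 and 0.54 in room air and at -0.32, -0.87, -0.62 and -0.71 in smoke (-1.25 ± 0.11, adjusted p = 4.81e-05). The other fall, Sftpa1, is also a surfactant gene, and it was not called without room air replicate 1, 2 or 4 or smoke replicate 2 or 3. Of 24 ciliated cell genes 2 fell and 0 rose (8.33% called, near the 4.97% of all autosomal genes, median -0.21). In this list 22 of 24 changes lay below 0, and the median of all autosomal genes was -0.01. The number of called falls rose to 9 without smoke replicate 1. It was 1 without room air replicate 2 and 0 without any other single array. The list median was 0.02, -0.31 and -0.29 within the slides. Basal cell genes gave 1 fall among 10, the receptor Ngfr (-0.64 ± 0.09; its other probe changed by 0.08). Neuroendocrine genes gave 2 rises among 9, of which the ubiquitin hydrolase Uchl1 went from 0.36, 0.19, 0.17 and 0.00 to 0.99, 1.27, 1.39 and 1.29 (1.06 ± 0.09, adjusted p = 6.51e-05; other probe 1.03). The other, Chgb (0.38), was lost in 9 of 19 alternatives, the settings without room air replicate 1, 2 or 4 or smoke replicate 1, 3 or 4 among them. The neuropeptide gene Calca (0.31 ± 0.13, adjusted p = 0.218) and Chga (-0.19) did not pass.

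Of 20 type 2 and surfactant genes 5 fell and 0 rose (25% called against 4.97% of all autosomal genes; median -0.11), each by less than 0.6 log2 units: the surfactant proteins Sftpd (-0.45 ± 0.10) and Sftpa1 (-0.27 ± 0.06), the lamellar body protein Lamp3 (-0.27), the desaturase Scd1 (-0.55) and complement component Hc (-0.33). Without smoke replicate 2 there were 0 such calls, without room air replicate 2 there was 1, and without any other single array 2. Sftpb (0.00), Abca3 (-0.02) and the lineage factor Nkx2-1 (-0.10) were not called. Of 16 type 1 genes 1 rose (6.25% called, near the 4.97% of all autosomal genes, median 0.11). It was Igfbp2, a binding protein of insulin-like growth factors. Igfbp2 went from 4.26, 4.38, 4.12 and 4.28 to 4.94, 5.26, 5.19 and 5.27 (0.90 ± 0.10, limma adjusted p = 4.77e-04). Ager and Aqp5 changed by 0.00 and 0.14.

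A group of platelet genes rose together. Of 16 measured erythroid and platelet genes 8 were called higher and 0 lower (50% called against 4.97% of all autosomal genes, median 0.89). Of these 8, 7 are platelet or megakaryocyte genes. Ppbp, the platelet basic protein from which the neutrophil attractant Cxcl7 is cut, stood at 0.17, 0.42, 0.15 and 0.08 in room air and at 1.93, 2.17, 1.84 and 2.14 in smoke, a 3.53-fold rise (1.82 ± 0.17, adjusted p = 1.16e-04; chr5:91845144-91845203). Platelet factor 4, Pf4, encoded close by at chr5:91848449-91848508, read 1.66, 1.81, 1.83 and 1.62 in room air and 2.73, 2.76, 2.49 and 2.65 in smoke (0.93 ± 0.10, adjusted p = 2.62e-04). Both groups were tight and apart in both genes.

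Genes of the platelet surface rose as well. Gp9, Gp1bb and Gp1ba encode subunits of the receptor for von Willebrand factor, and they rose by 1.53 ± 0.19, 1.31 ± 0.19 and 1.32 ± 0.17. Itga2b, the fibrinogen receptor chain, went from -2.41, -2.34, -2.39 and -2.60 to -1.27, -1.09, -1.47 and -1.18 (1.18 ± 0.13, adjusted p = 2.98e-04). Treml1, a receptor stored in platelet granules, went from -0.55, -0.54, -0.36 and -0.62 to 0.84, 0.91, 0.79 and 0.87 (1.37 ± 0.14, adjusted p = 2.02e-04). The collagen receptor Gp6 rose by 1.47 ± 0.18, the podoplanin receptor Clec1b by 0.86 ± 0.14 and Ly6g6f, a platelet surface protein, by 1.76 ± 0.23 (above the background flag on 3 of 4 room air arrays). Gp6 and Gp1ba are in no list and are named after their values were seen. In every gene of this paragraph the 4 smoke arrays lay above the 4 room air arrays, and none of the calls of Ppbp, Pf4, Gp9, Gp1bb, Gp1ba, Itga2b, Treml1, Gp6 or Ly6g6f was lost in any alternative. With normexp their rises were smaller, 0.64 for Gp1bb, 0.76 for Gp1ba, 0.73 for Itga2b, 0.68 for Gp6 and 0.33 for Ly6g6f.

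The haemoglobin genes Hba-a1 and Hbb-bt were not called and changed by -0.39 (adjusted p = 0.283) and -0.31 (adjusted p = 0.194), so the summed level of the list, which they dominate, was 9.18 to 9.83 in room air and 9.00 to 9.32 in smoke. The band 3 gene Slc4a1 did not pass (1.18 ± 0.33, adjusted p = 0.0711). The list median was 0.73, 0.87 and 0.79 within the slides and 0.89 with the slide as a block. At slide position 4 alone Ppbp read 0.08 in room air and 2.14 in smoke. Whether the share of blood in the samples moved with the platelet genes was not tested beyond these values.

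**Figure D3:**
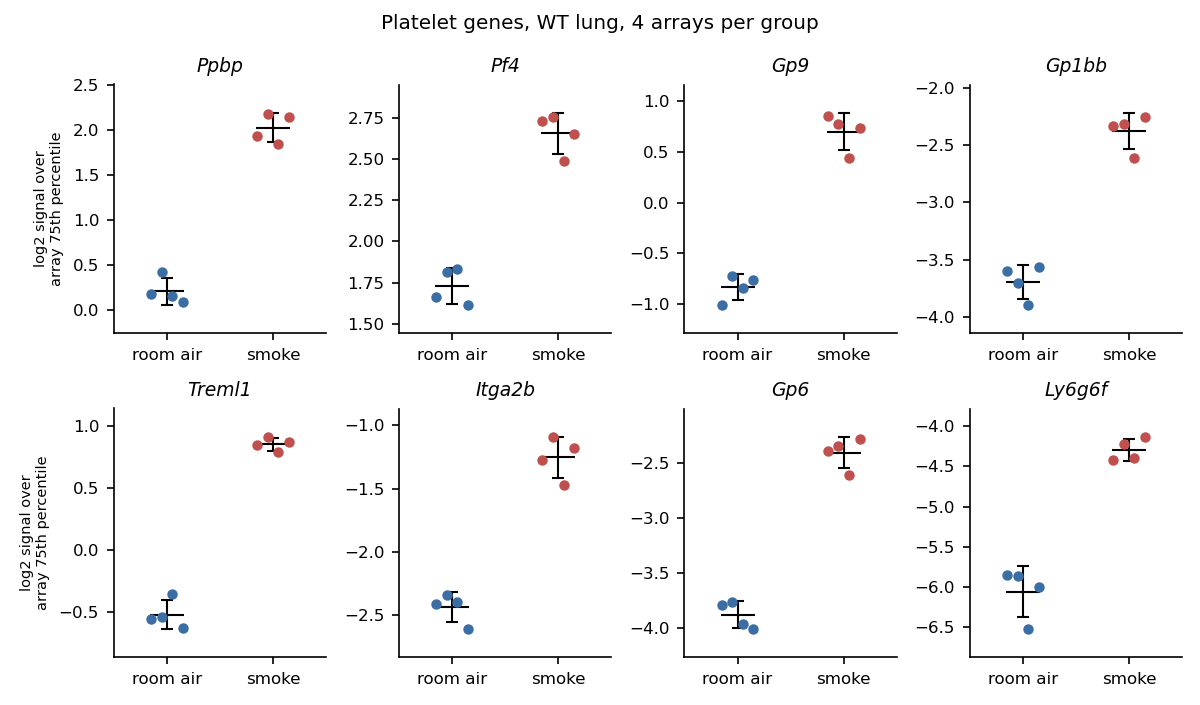
Levels of 8 platelet genes in log2 signal over the array's 75th percentile (vertical axis, 1 scale per panel) on the 4 room air (blue) and 4 smoke (red) WT arrays, each point a mouse in the order of replicates 1 to 4, with mean and SD. The groups are separate in all panels, as in Ppbp (0.20 ± 0.15 to 2.02 ± 0.16) and Treml1 (-0.52 ± 0.11 to 0.85 ± 0.05).

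Alveolar macrophages of smoke-exposed lung are known to load lipid and to express lysosomal and scavenger genes. Of 30 such genes 8 rose and 0 fell (26.7% called against 4.97% of all autosomal genes, median 0.18). Gpnmb, a glycoprotein of lipid-laden macrophages, stood at -1.92, -2.08, -1.78 and -2.25 in room air and at -0.90, -0.97, -1.13 and -1.29 in smoke (0.94 ± 0.11, adjusted p = 4.25e-04). The scavenger receptor Marco rose by 0.86 ± 0.21, the lysosomal channel Mcoln3 by 0.58 ± 0.09, the collagen-cleaving cathepsin Ctsk by 0.54 ± 0.12, the chemokine Ccl6 by 0.45 ± 0.08 and the nuclear receptor Pparg by 0.42 ± 0.07. Mmp12, the elastase tied to emphysema in smoke-exposed mice, read -6.14, -5.36, -5.42 and -5.84 in room air and -5.83, -5.52, -6.33 and -5.55 in smoke, so the groups overlapped fully (-0.12 ± 0.20, adjusted p = 0.823). The defining marker Siglecf changed by -0.17 (adjusted p = 0.298), and Spp1 by -0.35. Without room air replicate 1, 2 or 4 or smoke replicate 1, 2 or 3 the list had 5 calls.

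None of 16 monocyte, 18 B cell or 24 T and NK cell genes was called by limma, against 4.97% of all autosomal genes, a share at which lists of this size would hold few calls. Their medians were -0.10, 0.12 and -0.24, and 5, 2 and 4 of them had an unadjusted p under 0.05. In the T and NK list 22 of 24 changes lay below 0, but the slide medians were -0.22, 0.06 and -0.31. Of 15 neutrophil genes 1 fell (6.67% called, near the 4.97% of all autosomal genes). It was Padi4, lost in 14 of 19 alternatives, and S100a8 (0.08) and S100a9 (0.10) were not called. Of 19 dendritic cell and MHC class II genes 2 fell, the chemokine Ccl17 (-0.66 ± 0.14) and Batf3 (-0.50 ± 0.12), a factor of cross-presenting dendritic cells; both were lost without room air replicate 3 or 4 or smoke replicate 2 or 3, and 1 was lost without room air replicate 1 or smoke replicate 1. Mast cell genes were mixed among 7: the protease Cma1 (-0.75 ± 0.15) and histidine decarboxylase Hdc (-0.53 ± 0.10) fell and the receptor Kit rose (0.41 ± 0.08), this last call being absent without room air replicate 1 or 4 or smoke replicate 2 or 3.

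Type 2 immune genes and chemokines moved in both directions. Il33, an epithelial alarmin, stood at 3.04, 3.07, 3.36 and 3.24 in room air and at 2.37, 2.37, 2.54 and 2.46 in smoke (-0.74 ± 0.10, adjusted p = 9.90e-04), and its receptor Il1rl1 fell by 0.45 on the log2 scale (adjusted p = 4.12e-03). Retnla, a marker of alternatively activated macrophages, went from 4.14 ± 0.55 to 3.07 ± 0.16 (-1.07 ± 0.23, adjusted p = 0.0203); its call was lost without room air replicate 2 or 3 or smoke replicate 2 or 4. The eosinophil chemokine Ccl11 rose by 0.61 ± 0.09 and the receptor chain Il4ra by 0.40 ± 0.07, while Il4 (0.13) and Il13 (0.02) were not called. In all, 2 of 18 rose and 3 fell (27.8% called against 4.97% of all autosomal genes, median 0.07). Of 29 chemokines 6 rose and 1 fell (24.1% called against 4.97% of all autosomal genes, median 0.11). The chemokine list median was 0.38, 0.19 and -0.13 within the slides. With Ppbp and Pf4 the rises were Cxcl5, Ccl11, Ccl6 and Cxcl17. Cxcl5, a neutrophil attractant next to Ppbp, read -6.63, -7.06, -4.91 and -7.03 in room air and -4.94, -4.25, -4.85 and -4.85 in smoke; room air replicate 3 overlapped, and the call (adjusted p = 0.0434) was lost in 12 of 18 alternatives. Cxcl1 did not pass (1.14 ± 0.31, adjusted p = 0.0592). Without room air replicate 4 or smoke replicate 2 or 3 the list had 4 rises and 0 falls. With normexp the change was 0.25 for Cxcl5, 0.39 for Ccl11 and -0.28 for Il1rl1.

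Of 22 NF-kB feedback and inflammatory cytokine genes 3 rose and 0 fell (13.6% called against 4.97% of all autosomal genes; median 0.07). Ptgs2, the inducible prostaglandin synthase, stood at -3.43, -3.19, -2.88 and -3.40 in room air and at -2.01, -2.19, -1.65 and -2.08 in smoke, a 2.37-fold rise (1.24 ± 0.14, adjusted p = 4.14e-04; other probe 1.18). The other rises were Tnfaip2 (0.51 ± 0.06) and Birc3 (0.24, lost in 12 of 19 alternatives), and Tnf (0.37), Il6 (0.42) and Il1b (-0.25) were not called. Il1f9, which encodes interleukin 36 gamma of stressed epithelium, rose by 1.80 ± 0.19 (adjusted p = 2.31e-04) on a probe that passed the background flag on 2 of 4 room air arrays, and its other probe did not pass (1.16, adjusted p = 0.106). With normexp the rise was 0.65 for Ptgs2 and 0.28 for Il1f9. Of 32 interferon-stimulated genes 0 rose and 2 fell, Oas2 (-0.63) and Oas1a (-0.45). This is 6.25% called, near the 4.97% of all autosomal genes, with a median of -0.02. Leaving out room air replicate 2, 3 or 4 or smoke replicate 2 left 0 calls there, leaving out room air replicate 1 left 1 fall, and leaving out smoke replicate 3 gave 2 rises and 1 fall.

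Some of the largest rises lay outside these programmes. Artn, which encodes artemin, a neurotrophic ligand of the receptor Gfra3, stood at -5.12, -5.75, -5.54 and -4.93 in room air and at -2.89, -3.44, -3.41 and -3.52 in smoke, a 4.06-fold rise (2.02 ± 0.18, adjusted p = 7.42e-05; chr4:117424722-117424781). It was the only rise among 14 neurotrophic factors and receptors (21.4% called against 4.97% of all autosomal genes). Of these, 2 receptors, Ngfr and Ntrk3 (-0.64 ± 0.09 each), fell, and Gfra3 changed by -0.39 ± 0.12 (limma adjusted p = 0.0894). Edn1, the vasoconstrictor endothelin, named after its values were seen, went from 0.35, 0.48, 0.80 and 0.19 to 1.80, 1.69, 1.91 and 1.47 (1.26 ± 0.12, adjusted p = 1.42e-04). Both genes had every smoke array above every room air array, which for Artn the rule for naming the largest rises required. Aspg, an asparaginase, rose by 1.61 ± 0.14 (other probe 1.27) and Ppp1r3g, a glycogen-targeting phosphatase subunit, by 1.55 ± 0.29, with smoke replicate 1 at -5.39 below the others. With normexp the rise was 0.51 for Artn and 0.37 for Ppp1r3g, and the change was -0.25 for Ntrk3 and -0.28 for Ngfr.

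Among falls, Entpd8, a nucleotidase that breaks down extracellular ATP, and Noxa1, an activator of NADPH oxidase, have neighbouring probes on chromosome 2 (chr2:24907238-24907297 and chr2:24908725-24908948). Entpd8 stood at -3.22, -3.60, -2.83 and -3.20 in room air and at -6.07, -6.26, -6.01 and -6.10 in smoke, a 7.42-fold fall (-2.89 ± 0.15, adjusted p = 8.60e-07; well above background on 3 of 4 smoke arrays). Noxa1 went from -2.34, -2.15, -1.41 and -1.50 to -4.01, -3.38, -3.74 and -3.47 (-1.80 ± 0.23, adjusted p = 8.78e-04). The groups did not overlap in either gene, as the rule for naming the largest falls required. Sult2a2, a sulfotransferase of steroids with close copies, was at least 2.99-fold lower and Dnajc5b, a co-chaperone, at least 2.46-fold lower. Both passed the background flag on every room air and on no smoke array. These bounds use the lowest signal that counted as measured on the smoke arrays and hold only for the processing used here. Among the alternatives the smallest change was -0.25 for Sult2a2 and -0.19 for Dnajc5b, less than these bounds. Cldn22 fell by 1.88 on the log2 scale (adjusted p = 3.23e-03), as did Slc38a11, an amino acid transporter relative (-1.56 ± 0.19, above background on 3 of 4 smoke arrays). Tmem217 was called lower but was above background on 1 of 4 smoke arrays, so no size is given. With normexp the changes were -0.71 for Entpd8, -0.86 for Noxa1, -0.53 for Cldn22 and -0.26 for Slc38a11, and the call of Tmem217 was lost. Of 18 claudin and tight junction genes 2 fell, Cldn22 and Cldn8 (-0.44 ± 0.09), and 0 rose (11.1% called against 4.97% of all autosomal genes, median 0.00).

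Plasma and acute phase genes split. Of 21 such genes 3 rose and 4 fell (33.3% called against 4.97% of all autosomal genes, median -0.05). Fgg, the gamma chain of fibrinogen, stood at -1.45, -1.32, -1.31 and -1.89 in room air and at -3.06, -3.54, -3.37 and -3.37 in smoke (-1.84 ± 0.19, adjusted p = 2.06e-04), and the protease inhibitor chain Itih4 fell by 0.98 on the log2 scale (adjusted p = 8.03e-04). Serpina3m, a member of the murine antichymotrypsin cluster, went the other way, from -1.16, -1.12, -1.11 and -1.03 to 0.33, 0.41, 0.44 and 0.57 (1.54 ± 0.08, adjusted p = 1.07e-06). In each of Fgg and Serpina3m the groups were far apart, and with normexp the fall of Fgg was -1.03. The calls of F3 (0.28), Serpina3g (0.82), Lbp (-0.24) and Hc (-0.33) were weaker, and without room air replicate 1 or 4 or smoke replicate 2 or 4 the list had 1 rise and 2 falls; without room air replicate 2 or smoke replicate 1 or 3 it had 2 and 2. The serum amyloids Saa1 (-0.19) and Saa3 (0.06) were not called.

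Lipid synthesis genes were lower and lipid oxidation genes higher where called. The sterol and fatty acid synthesis list gave 7 falls and 0 rises among 32 (21.9% called, median -0.19), and 30 of 32 changes lay below 0. The farnesyl diphosphate synthase Fdps read 1.64, 1.67, 1.57 and 1.68 in room air and 1.22, 1.23, 1.27 and 1.25 in smoke (-0.40 ± 0.05, adjusted p = 8.06e-04; other probe -0.12), and the sterol demethylase Cyp51 changed by -0.35 ± 0.06. These are small falls with small spread. There were 4 falls without room air replicate 1 or 4 or smoke replicate 1, and 3 without smoke replicate 2 or 3; with normexp the change of Cyp51 was -0.22. Of 27 PPAR targets and fatty acid oxidation genes 6 rose and 0 fell (median 0.09), led by Angptl4, an inhibitor of lipoprotein lipase, from 2.46, 2.81, 2.51 and 2.15 to 3.30, 3.57, 4.14 and 4.45 (1.39 ± 0.22, adjusted p = 3.92e-03). The mitochondrial importer Cpt1a rose by 0.41 ± 0.07 and the thiolase Acaa2 by 0.28; without smoke replicate 3 the list had 3 rises. Of 16 adipocyte genes 1 fell (6.25% called, near the 4.97% of all autosomal genes). It was Thrsp (-1.13 ± 0.27, lost in 9 of 19 alternatives).

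Mitotic genes were lower, by small amounts. Of 38 cell cycle genes 8 fell and 0 rose (21.1% called against 4.97% of all autosomal genes, median -0.30). In this list 36 of 38 changes lay below 0. The proliferation antigen Mki67 stood at 0.40, 0.25, 0.59 and 0.61 in room air and at -0.05, 0.04, -0.13 and 0.04 in smoke (-0.49 ± 0.12, adjusted p = 0.0379), and the kinesin Kif2c changed by -0.81 ± 0.17, cyclin Ccnb1 by -0.70 ± 0.18 and Aurkb by -0.57 ± 0.15. The list median was -0.47, -0.04 and -0.48 within the slides. Without room air replicate 4 there were 0 falls, without smoke replicate 2 or 3 there was 1, without smoke replicate 1 or room air replicate 3 there were 2, without room air replicate 1 there were 3 and without smoke replicate 4 there were 5. With normexp the change of Kif2c was -0.09 and its call was lost.

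Muscle, matrix and housekeeping lists are read against the 4.97% of all autosomal genes called. Of 29 cardiac and skeletal sarcomere genes 3 fell and 0 rose (median -0.31): the skeletal myosin Myh2 (above background on 1 of 4 smoke arrays, so no size is given), Mybpc3 (-0.72 ± 0.17) and Tnnc1 (-0.49 ± 0.10), and the list had 1 fall without room air replicate 4 or smoke replicate 2 or 4. The median of the sarcomere list was -0.21, -0.38 and 0.03 within the slides. Cardiac Myh6, which marks heart tissue, changed by -0.08 (limma adjusted p = 0.803). The 14 smooth muscle genes had 0 calls, 5 had an unadjusted p under 0.05, and all 14 changes lay below 0 (median -0.17; Acta2 -0.36 ± 0.11, adjusted p = 0.0941). Of 28 endothelial genes 1 fell, the lymphatic factor Prox1 (-0.30 ± 0.05, list median 0.00). Its call was lost in 1 of 19 alternatives, and its smallest change among them was -0.09. Of 35 collagen and elastic fibre genes 1 fell (Col14a1, lost in 12 of 19 alternatives, list median -0.09). Of 30 matrix proteases and inhibitors 1 rose (Ctsk, list median 0.03). Ctsk was not called without room air replicate 1, 2 or 4 or smoke replicate 1, 2 or 3. None of 21 clock genes (median 0.04) or 35 oxidative phosphorylation subunits (median 0.01) was called by limma, and 2 of each list had an unadjusted p under 0.05.

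**Figure D4:**
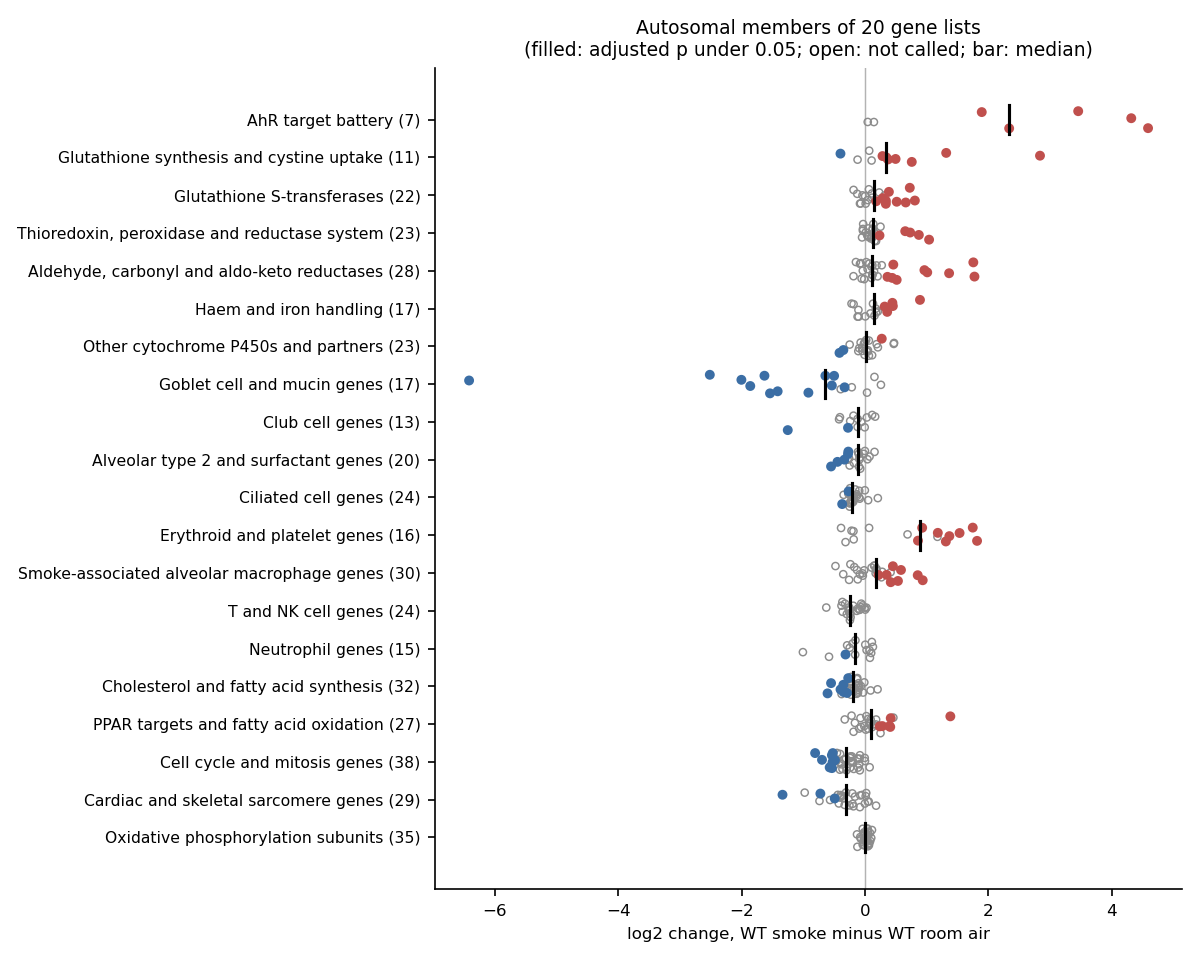
Change from room air to smoke in log2 units (horizontal axis) for each tested autosomal member of 20 gene lists (rows, number tested in parentheses); filled points passed the limma adjusted p of 0.05 (red higher, blue lower in smoke), open points did not, and bars mark the list median. The AhR battery (median 2.34) lies to the right and the goblet list (median -0.64) to the left, with Clca1 at -6.42, while the oxidative phosphorylation subunits lie near 0.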

How the data were processed

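RNA of whole lung was labelled with Cy3 and read on 1-colour Agilent arrays, and per the submitters' processing notes the scans were extracted with Agilent Feature Extraction 9.5.3.1. The deposited files hold the processed signal as a linear intensity per spot, already corrected for background per the file headers, and scanner flags for well above background, saturated and outlier spots. The authors also deposited a log2 value table, whose columns share a median of 6.79 and correlate with the arrays at 0.9995 or more; it was used as an alternative, and the way the authors normalized it is not given in the sources used here.

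Control and outlier spots were left out, spots of a probe were averaged, and log2 signals were set against each array's 75th percentile. A gene was read by its brightest kept probe. limma 3.58.1 (R 4.3.3) fitted a mean per group on all 12 arrays, and the contrast of WT smoke with WT room air was adjusted by Benjamini-Hochberg over 19512 genes. The limma fit and its adjustment were tested on simulated data. Other tools were Python 3.11.15 and matplotlib 3.10.9. Each array had 43379 spots, 70.1% to 74.8% of them well above background; the number of arrays limits the precision.

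The text names the top 15 rises and the top 15 falls of called autosomal genes without overlap and well above background in the brighter group (no clone, Riken or accession names), Cyp1a1, Cyp1b1, Ahrr and Nqo1, and up to 6 called members with the smallest p in each list. Other list members are named as not called, and called members past the first 6 of a list (such as Gclc, Ggt5, Marco and Clec1b) were chosen after their values were seen. The members and lists were chosen with earlier results of these data known. A few list members are not reported here by name. Probe positions are on mm8. Replicate numbers did not pair the arrays: same-numbered arrays correlated at -0.08, 0.06, -0.02 and 0.11. Alternatives were 2 other scalings, the value table, normexp (offset 50), 2 filters, WT arrays alone, slide and replicate blocks, probe means, adjustment over autosomal genes and leaving out each array.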

Additional observations from a re-analysis of the deposited data

Results flagged for a closer look

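Among the 155 named genes, each screened in both groups, a single mouse stood far from the other 3 of its group in 16 by Dixon's criterion. Chance alone meets this criterion in a small share of groups. With so many groups screened, the count alone marks no mouse as unusual. In room air the mouse that stood apart was replicate 4 for Nqo1 (-0.98, below the others) and Ccl6 (3.46, below), replicate 2 for Slc3a2 (4.06, below) and Pparg (0.60, above), replicate 1 for Slc40a1 (-0.59, above), and replicate 3 for Ngfr (-2.75), Lbp (1.33) and Ntrk3 (-3.41), all below. In smoke it was replicate 2 for Hsph1 (1.74, below) and Cxcl5 (-4.25, above), replicate 1 for Myc (-0.94), Cpt1a (1.78) and Bub1b (-2.99), all below, and replicate 4 for Slc26a9 (-0.082, below), Padi4 (-2.06, above) and Myh2 (-7.30, below).

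Y-linked genes, which lie outside the autosomes compared, gave signal in the smoke arrays above that of the room air arrays, although all mice are labelled male. The smoke means were 0.46 for Ddx3y, -2.40 for Kdm5d, -5.05 for Uty and 1.45 for Eif2s3y. The first 3 passed the background flag on 0 of 4 room air arrays and were at least 126-fold, 17.5-fold and 2.79-fold higher in smoke, and Eif2s3y, which passed it on 2 of 4, had a mean of -6.93 there. Sex-linked signal and exposure cannot be told apart in these mice.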

How the results depend on the processing

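Among 445 higher, 485 lower and 304 genes called with at least a 1.5-fold change, counts depended on the setting. Without a filter on signal over background 277 were higher and 252 lower. With normexp 310 were lower, and 90 passed with at least 1.5-fold. Leaving out each array in turn gave 266 to 359 higher and 248 to 411 lower genes. With the replicate block 319 were higher and 320 lower; the numbers do not pair the mice. Of 155 named genes, 58 lost their call in at least 1 of 19 alternatives and 0 changed sign; normexp made 46 of their changes smaller by over 1.5 times, and the cause was not tested. Of 969 list medians, 927 moved by less than 1 SD. Dim probes and 4 mice a group limit the precision.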
